A study of Danio rerio with 18 samples.

Results

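The genes described here build and run the contractile apparatus of heart muscle: the thick filament, the thin filament, titin and the M band, the Z disc and costamere, the chaperones that assemble myosin, and the sarcoplasmic reticulum with its calcium channel and pump. They were chosen by name from a list of 44 symbols and kept where a symbol matched a gene of the deposited count table with at least 10 counts in 3 libraries. Of the 44, 43 matched a gene and all 43 met that minimum, out of 25107 genes in the table and 20462 that passed the filter for testing. No gene was matched to ryr2a, and its level is not analysed here. The 43 genes fell into 6 roles, with 6 in the thick filament, 8 in the thin filament, 5 in titin and the M band, 15 in the Z disc and costamere, 3 among chaperones and assembly, and 6 in the sarcoplasmic reticulum.

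Ventricles of adult zebrafish gave 18 RNA-seq libraries, each from 2 to 3 pooled ventricles, in 6 groups of 3 libraries. Every fish, controls included, was homozygous for the tcf21 allele vln18 and carried 2 transgenes, the inducible Cre line Tg(ubbR:CreERT2*)vln2, driven by ubiquitin regulatory sequence and so not limited to 1 cell type, and the reporter TgBAC(tcf21:DsRed2)pd37. The conditional knock-out arm (cKO) received the Cre-activating drug 4-Hydroxytamoxifen at 5 µM, in 3 baths of 24 h each, and was operated on or sampled 12 days from the start of the baths. Control libraries are titled tcf21-floxed (WT), where floxed means that active Cre can delete the gene. No drug treatment stands in the labels of control fish, so drug and deletion cannot be told apart. Each arm had ventricles without operation (uninjured, day 0), ventricles 3 days after exposing the heart alone (sham), and ventricles 3 days after a freezing injury by a liquid-nitrogen-cooled probe (cryoinjury). The study asked about the role of tcf21, a transcription factor of the epicardium, in the regenerating heart.

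In a sarcomere, myosin heads of the thick filament pull on actin of the thin filament. Calcium leaves the sarcoplasmic reticulum through the ryanodine receptor and binds troponin, which moves tropomyosin and lets myosin bind, and a calcium pump then returns the ion to the store. Titin spans from the Z disc, where thin filaments are anchored, to the M band, where thick filaments are held together. In the zebrafish heart, cardiomyocytes at the border of an injury are known to take their sarcomeres apart in part before they divide.

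Totals ranged from 107256750 to 191085931 estimated counts a library, and mitochondrial genes took 11.7% to 21.6% of them. The targeted gene followed the labels, with tcf21 at 6.28 to 18.9 CPM (counts scaled to library size by TMM) in the 9 control libraries and 0.411 to 0.910 CPM in the 9 cKO libraries. All 3 uninjured and 2 of the 3 sham libraries of the control arm were read in lane 2 of the flow cell, and the other 13, with every cKO and every cryoinjured library, in lane 4. Control cryoinjury and control uninjured therefore never shared a lane, whereas all comparisons within the cKO arm lay in lane 4. Of the markers of the labelled tissue nkx2.5 was at 88.8 to 288 CPM over the 18 libraries. Of the atrial markers myl4 did not exceed 0.613 CPM, nr2f1a lay between 2.07 and 7.51 CPM, and nppa, which the ventricle also expresses, between 1564 and 4199 CPM. Among the skeletal muscle markers the fast myosins myhz1.1, myhz1.2, myhz1.3 and myhz2 had 0 counts in 11 to 17 of the 18 libraries and at most 0.327 CPM elsewhere. That list's abundant genes were ckma, at 1599 to 4978 CPM, and acta1b, at 790 to 9226 CPM. The labels do not say that libraries of a group came from separate experiments, so p-values measure the spread between these pools.

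Per length, as TPM (coverage scaled to transcript length and library size), the filament proteins led. Over the 18 libraries the mean level was 18426 TPM for actc1a, cardiac alpha actin, 16944 TPM for myl7, a myosin regulatory light chain, and 13684 TPM for cmlc1, a cardiac myosin light chain. Next came tpm4a, a tropomyosin, at 9419 TPM and vmhcl, a ventricular myosin heavy chain, at 6905 TPM. The range over libraries was 12956 to 25719 TPM for actc1a and 13664 to 20285 TPM for myl7, so those neighbours overlapped. The calcium pump gene atp2a2a was at 1978 TPM and alpha-actinin (actn2b) at 1921 TPM. At the other end stood smyd1a with 0.621 TPM, murcb with 1.57 TPM, tpm1 with 7.48 TPM, myoz2a with 7.73 TPM and the atrial myosin heavy chain myh6 with 11.2 TPM.

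Several members have a close copy among the genes listed, and counts of such copies can be exchanged by the quantifier. vmhc (ENSDARG00000079564) and vmhcl (ENSDARG00000079782) lie in tandem in GRCz11, on chromosome 2, minus strand, at 24252987 to 24270062 and at 24274293 to 24289726. ttn.1 (ENSDARG00000000563) and ttn.2 (ENSDARG00000028213), both titin genes, lie on the minus strand of chromosome 9, from 42732992 to 42873700 and from 42894845 to 43073960. The names within both pairs were assigned by the order of neighbouring genes, and how reads were split between copies is uncertain. Titin coverage lay mostly at the 3′ end. In the 88553-base transcript of ttn.1 the last 10% of the length held 91.0% to 96.9% of the coverage of the transcript, by library. In the 67298-base transcript of ttn.2 the same stretch held 80.0% to 88.6%. The levels of titin per length average over bases with little coverage, and its CPM stands for the 3′ end. For ryr2b, the ryanodine receptor, the last 10% of a 19846-base transcript held 9.76% to 18.5%.

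Together the 43 genes made up 14.5%, 11.7% and 12.4% of all counts in the 3 uninjured control libraries, 12.0%, 11.8% and 11.3% after sham, and 8.30%, 8.96% and 9.30% after cryoinjury. In the cKO arm they made up 13.4%, 13.4% and 11.9% uninjured, 12.6%, 12.8% and 11.8% after sham, and 12.2%, 9.70% and 10.7% after cryoinjury. The cryoinjured control libraries lay below the other 15 libraries. Cryoinjured cKO libraries overlapped with uninjured and sham cKO libraries through 1 library at 12.2%. The group means were 12.8% ± 1.47, 11.7% ± 0.351 and 8.85% ± 0.508 in control and 12.9% ± 0.881, 12.4% ± 0.502 and 10.9% ± 1.26 in cKO (SD, n = 3 libraries, as in all means below). Without vmhcl, the gene with the most counts, the control libraries lay at 8.92% to 10.6%, 8.48% to 9.28% and 6.59% to 7.25%. In bulk tissue fewer heart muscle cells and less RNA per cell cannot be told apart.

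**Figure D1:**
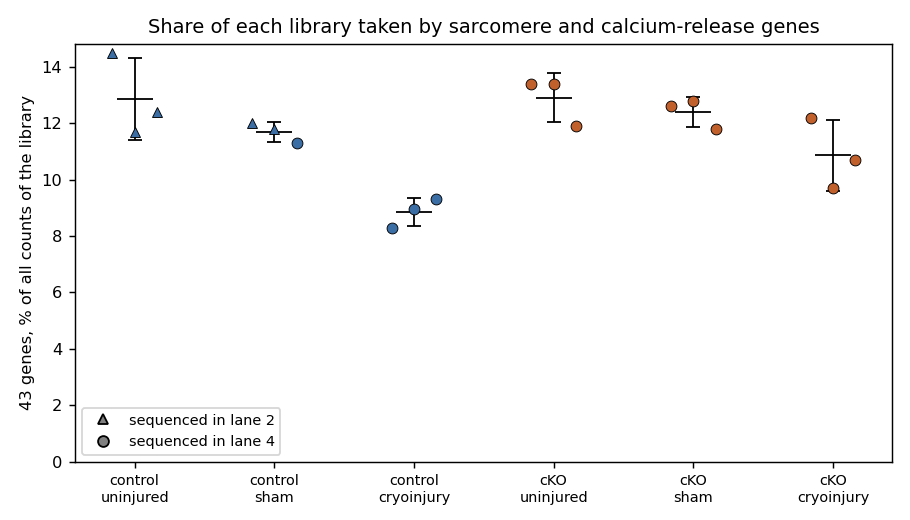
Percent of all counts of a library taken by the 43 genes, by group, with 1 point per library, the group mean and 1 SD. Triangles were read in lane 2 and circles in lane 4. The 3 cryoinjured control libraries, at 8.30% to 9.30%, lie below all other libraries.

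The first comparison set cryoinjured against uninjured control ventricles. Of the 43 genes 29 fell and 1 rose in the edgeR quasi-likelihood test at an adjusted p under 0.05, and 13 did not pass. Over all genes tested 23.7% passed, with 10.6% lower and 13.1% higher. The median log2 fold change of the members was −0.87 against 0.02 over all genes tested. In 30 members the 3 libraries of one group did not overlap with the 3 of the other, which held for 35.0% of all genes tested. By role 4 of 6 thick filament genes fell, 6 of 8 thin filament genes, 4 of 5 genes of titin and the M band, 10 of 15 Z disc and costamere genes, 1 of 3 chaperone genes and 4 of 6 genes of the sarcoplasmic reticulum. The gene that rose was tpm1 of the thin filament.

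The thick filament gene with the most counts, vmhcl, was at 50667, 29377 and 36061 CPM in uninjured control libraries and at 12855, 15473 and 17715 CPM after cryoinjury. All 3 cryoinjured libraries lay below all 3 uninjured ones. Its log2 fold change was −1.33 (SE 0.19, adjusted p 0.000141 in edgeR), which is 0.40 of the uninjured level. The light chains myl7 and cmlc1 fell by 0.90 and 1.09 on the log2 scale, and mybpc3, cardiac myosin binding protein C, by 1.02. The tandem copy vmhc did not pass, with 719, 511 and 679 CPM uninjured and 674, 866 and 677 CPM after cryoinjury, and myh6 did not pass, with 43.2 ± 20.5 and 43.4 ± 20.7 CPM.

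In the thin filament actc1a fell from 28188, 17236 and 19179 CPM to 9232, 10400 and 11954 CPM, with no overlap. Its log2 fold change was −1.03 (SE 0.19, adjusted p 0.00109 in edgeR). Larger changes were seen in the leiomodins, which nucleate and lengthen thin filaments. lmod2b was at 585, 415 and 807 CPM uninjured and 144, 179 and 197 CPM after cryoinjury. lmod2a was at 97.8, 95.1 and 157 CPM uninjured and 26.0, 32.3 and 47.9 CPM after cryoinjury. Both copies were lower in all 3 injured libraries, with log2 fold changes of −1.80 (SE 0.27, adjusted p 0.000205 in edgeR) and −1.72 (SE 0.40, adjusted p 0.00524). Cardiac troponin T (tnnt2a) fell by 0.95, tpm4a by 0.71 and troponin C (tnnc1a) by 0.74 on the log2 scale, and troponin I (tnni1b) did not pass at −0.27. The scarce tropomyosin tpm1 was at 7.07, 4.38 and 6.48 CPM uninjured and at 14.2, 13.6 and 10.7 CPM after cryoinjury. It rose to 2.15 times the uninjured level (adjusted p 0.00693 in edgeR). Per length it stood at 4.01 ± 1.11 TPM in uninjured control ventricles, where tpm4a stood at 9979 ± 756 TPM.

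Of titin and the M band, ttn.2 was at 5600, 3953 and 4204 CPM uninjured and 2086, 2864 and 2743 CPM after cryoinjury, a log2 fold change of −0.84 (with SE 0.16 and adjusted p 0.00138 in edgeR). ttn.1 had a log2 fold change of −0.81. Among the myomesins, which link thick filaments at the M band, myom2a was at 1246, 1278 and 1441 CPM uninjured and 497, 555 and 601 CPM after cryoinjury. Its change of −1.26 (SE 0.14, adjusted p 1.72e-05 in edgeR) had the smallest p of the 43 genes. myom1b fell from 2509, 1554 and 2170 CPM to 1029, 1082 and 1103 CPM, by 0.96 on the log2 scale, and myom1a did not pass at −0.56.

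At the Z disc actn2b, which crosslinks actin, went from 6270, 3789 and 3944 CPM to 2007, 2703 and 2957 CPM. The injured libraries all lay lower, with a log2 fold change of −0.87 (with SE 0.20 and adjusted p 0.00412 in edgeR). tcap, which caps titin at the Z disc, was at 355, 414 and 470 CPM uninjured and 95.3, 107 and 86.8 CPM after cryoinjury, the largest fold change of the 43 at −2.10 (SE 0.61, adjusted p 0.0209 in edgeR). That call was lost in 4 of 6 fits that left out a library, and with lane as a covariate the change was −0.04 (adjusted p 1.000 in edgeR). pdlim5a, a PDZ and LIM domain protein, was at 115, 88.6 and 63.8 CPM uninjured and 26.6, 29.3 and 31.3 CPM after cryoinjury, a log2 fold change of −1.61 (with SE 0.23 and adjusted p 0.000106 in edgeR). pdlim5b fell by 1.27, the calcineurin-binding myoz2b by 1.45, ldb3a by 1.37, ldb3b by 0.99, nexilin (nexn) by 1.06, synpo2lb by 0.71 and filamin C (flnca) by 0.72 on the log2 scale. The call of flnca was lost in each of the 6 fits that left out a library. Not passing were flncb at −0.44, csrp3 at −0.83, nrap at −0.11, myoz2a at 0.20 and murcb at −0.91, of which murcb had 2.68 ± 2.09 CPM uninjured.

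Of the assembly factors smyd1b, a methyltransferase needed for myosin assembly in zebrafish, was at 392, 274 and 306 CPM uninjured and 191, 221 and 198 CPM after cryoinjury. It fell by 0.67 on the log2 scale (with SE 0.14 and adjusted p 0.00273 in edgeR), with no overlap. The myosin chaperone unc45b did not pass at −0.45, nor smyd1a at −0.54. In the sarcoplasmic reticulum atp2a2a, the calcium pump, was at 10181, 6358 and 6443 CPM uninjured and 2395, 2610 and 3071 CPM after cryoinjury. It fell to 0.35 of the uninjured level, a log2 fold change of −1.51 (with SE 0.19 and adjusted p 3.81e-05 in edgeR), and no libraries overlapped. The calcium buffer calsequestrin (casq2) fell by 1.27, triadin (trdn) by 1.01 and junctophilin (jph2), which holds the store close to the surface membrane, by 0.82 on the log2 scale. ryr2b did not pass at −0.54, nor the other pump gene atp2a2b at −0.18.

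**Figure D2:**
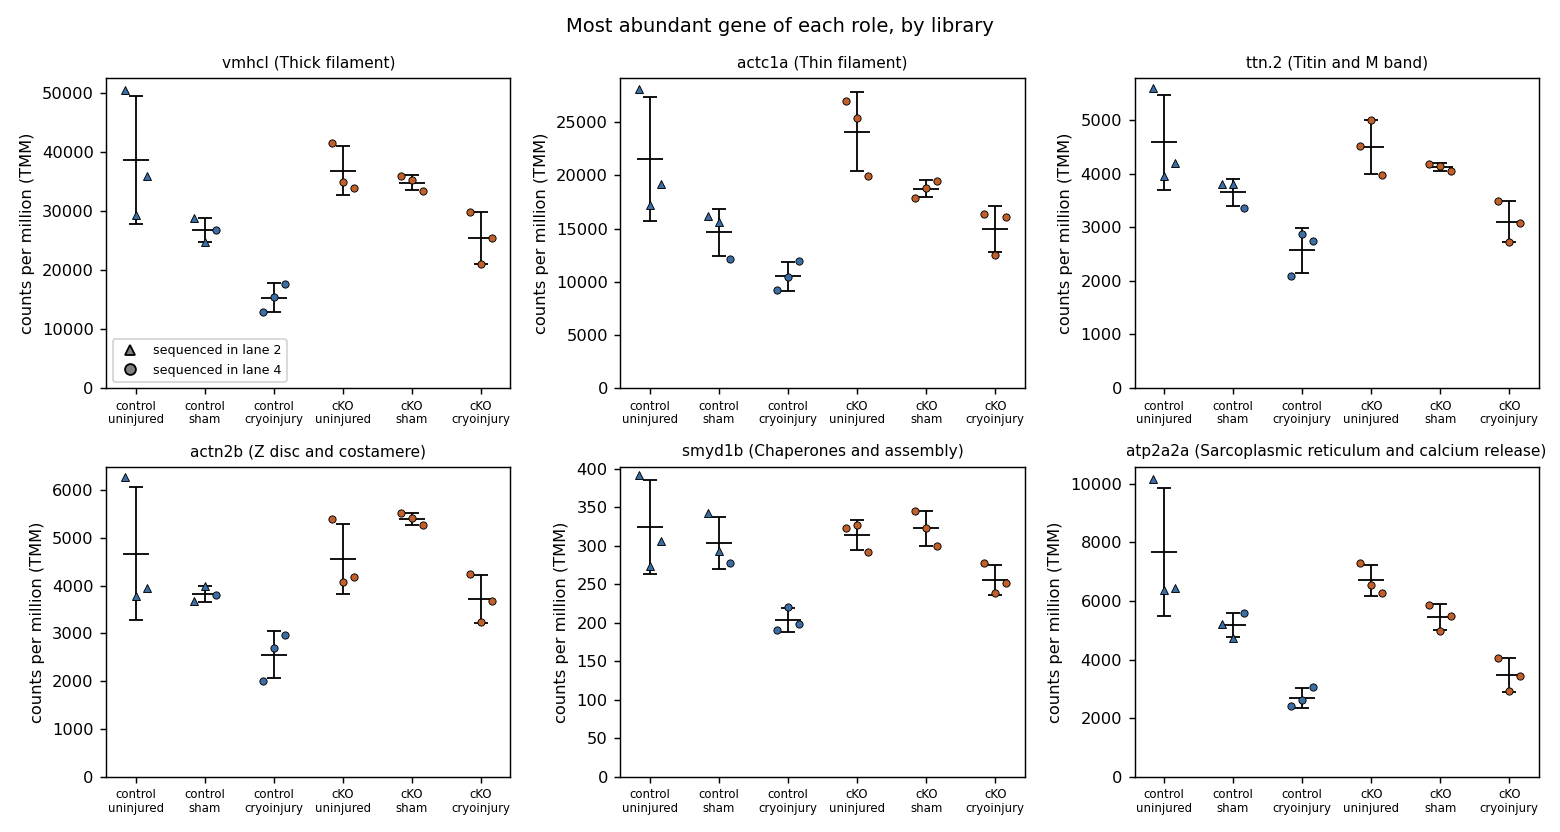
CPM (scaled by TMM) of the gene of highest mean CPM in each role in all 18 libraries, with group mean and 1 SD. CPM is not corrected for length, so these are not all the genes of highest TPM. Triangles were read in lane 2 and circles in lane 4. In each of the 6 panels the 3 cryoinjured control libraries lie below the 3 uninjured control libraries.

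Lane went with this comparison. In a fit with lane as a covariate, which is informed only by the control sham group, 6 of the 43 genes passed in place of 30: vmhcl, ldb3b, myom2a, lmod2a, lmod2b and atp2a2a. The share of all genes that passed in that fit is not given here, so a general loss of calls cannot be told from one among the members. No lane held both uninjured and cryoinjured control libraries, so that contrast has no value within a lane. When libraries were scaled by their total counts the median over all genes shifted by 0.49 on the log2 scale, and 2 members rose and 17 fell, with a median of −0.37, which is 0.88 below that of all genes. Under it 5715 of all genes were called higher and 507 lower, so 91.9% of all calls were higher, against 55.3% with TMM scaling. None of the 30 called genes changed sign, and 5 uncalled members did.

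In the cKO arm, all in lane 4, the same contrast of cryoinjured against uninjured ventricles had 11 genes that fell and 2 that rose, and 30 did not pass. Over all genes tested 10.6% passed, with 3.69% lower and 6.92% higher. The median log2 fold change of the members was −0.39, from −2.47 to 1.35, against 0.03 over all genes. Of the 13 genes called, 12 were also called in control: actc1a, tpm1, ttn.2, mybpc3, ldb3b, myom1b, myom2a, pdlim5a, lmod2a, nexn, atp2a2a and synpo2lb. They make up 92.3% of the cKO calls and 40.0% of the control calls, and over all genes tested the shared calls made up 75.4% and 33.7%. In both arms 34 of the 43 genes had a negative log2 fold change, or 79.1%, against 33.8% of all genes. Scaled by total counts 2 members rose and 4 fell, and 90.9% of all calls were higher against 65.2%. The number of calls was 4 without replicate 2 and 5 without replicate 3 of cryoinjured cKO. It was 5 without replicate 2 of uninjured cKO. The share of all genes called in those fits is not given here. A general loss of calls with fewer libraries therefore cannot be told from one among the members.

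The strongest fall in the cKO arm was that of lmod2a, from 110, 185 and 321 CPM to 44.9, 23.3 and 43.2 CPM, a log2 fold change of −2.47 (with SE 0.41 and adjusted p 0.00133 in edgeR). Its copy lmod2b was at 705, 556 and 482 CPM uninjured and 468, 327 and 407 CPM after cryoinjury and did not pass, at −0.54. nexn went from 555, 606 and 762 CPM to 367, 293 and 290 CPM, by −1.02 (SE 0.23, adjusted p 0.00984 in edgeR). For these genes no cryoinjured library reached an uninjured one. myom2a fell from 1179, 1133 and 1088 CPM to 656, 519 and 543 CPM, by 0.98 on the log2 scale (with SE 0.14 and adjusted p 0.000322 in edgeR). atp2a2a fell from 7291, 6552 and 6256 CPM to 4062, 2913 and 3443 CPM, by 0.95 (SE 0.18, adjusted p 0.00368). pdlim5a fell from 51.8, 77.3 and 56.5 CPM to 38.1, 34.0 and 28.9 CPM, by 0.88 (SE 0.22, adjusted p 0.0180). In these 3 genes too the groups did not overlap.

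vmhc rose in cKO, from 679, 596 and 510 CPM to 966, 1186 and 992 CPM, by 0.82 on the log2 scale (with SE 0.16 and adjusted p 0.00453 in edgeR). Its tandem copy vmhcl stood at 41628, 35037 and 33898 CPM uninjured and 29810, 21094 and 25467 CPM after cryoinjury and did not pass, at −0.53. tpm1 rose from 7.74, 6.25 and 3.87 CPM to 13.2, 9.68 and 10.2 CPM, by 0.89 (SE 0.27, adjusted p 0.0438 in edgeR), a call lost in 5 of 6 fits that left out a library. Of the other leading genes actc1a fell from 27001, 25446 and 19940 CPM to 16342, 12508 and 16049 CPM, by 0.69, and ttn.2 from 4511, 5001 and 3979 CPM to 3487, 2731 and 3086 CPM, by 0.54. Both calls were lost in 4 of the 6 fits that left out a library. actn2b, with 5401, 4073 and 4189 CPM against 4245, 3235 and 3673 CPM, overlapped and did not pass. smyd1b, with 323, 327 and 292 CPM against 277, 239 and 251 CPM, did not overlap and did not pass.

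**Figure D3:**
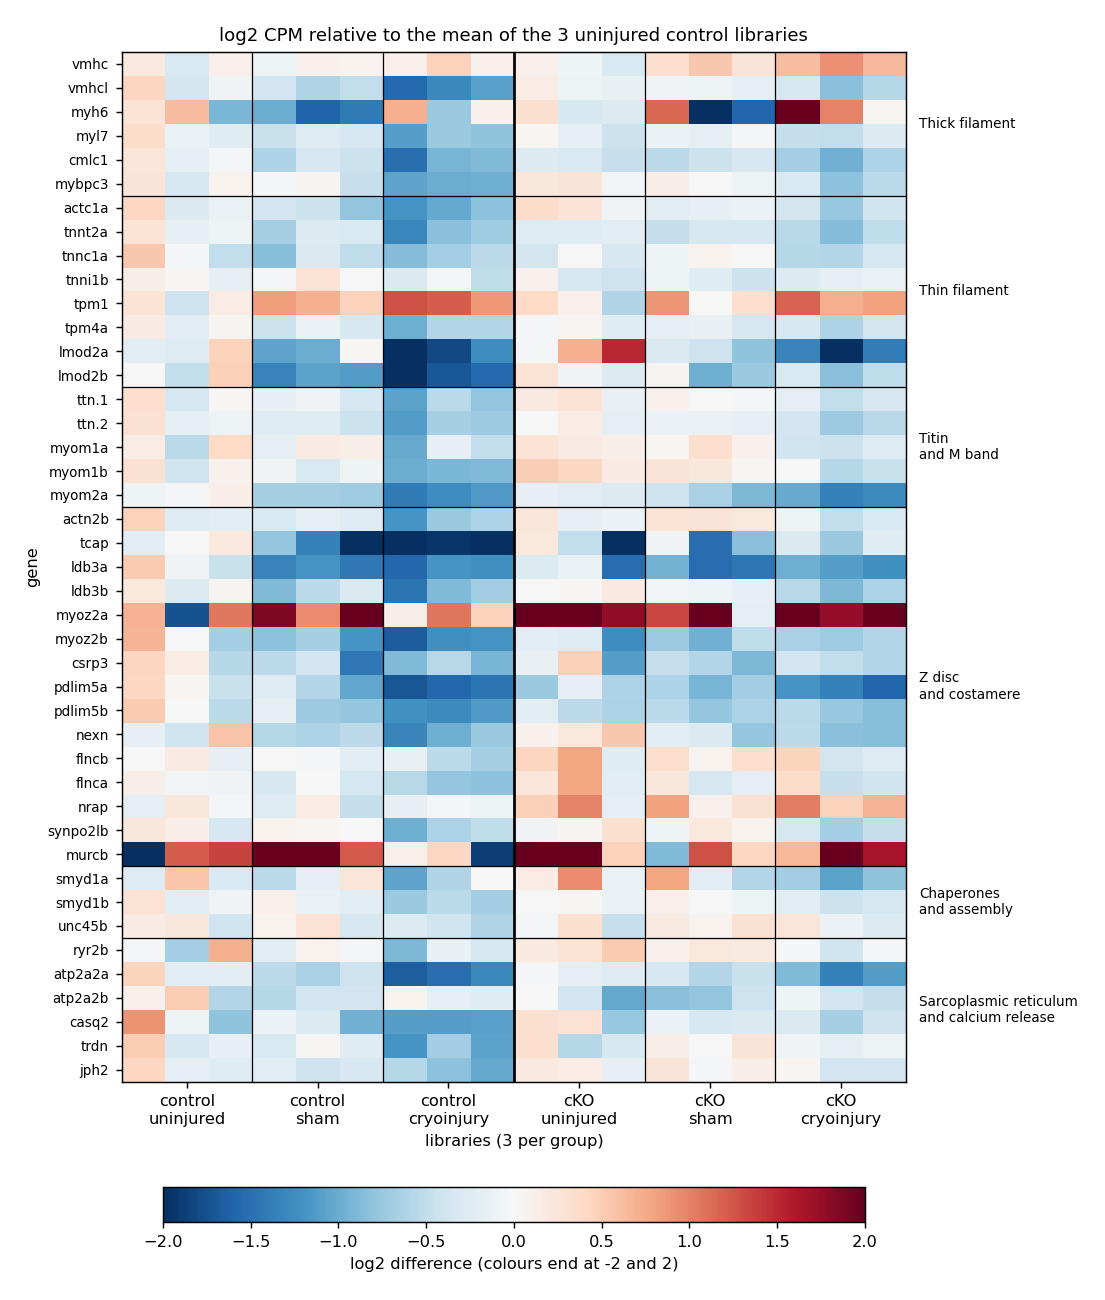
Heat map of log2 CPM of the 43 genes (rows, by role) in the 18 libraries (columns, 3 per group), each gene relative to its mean over the 3 uninjured control libraries. Blue is lower and red higher, and colours end at −2 and 2. Blue rows are densest in the 3 cryoinjured control columns, and tpm1 is red there.

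The response of the arms was then compared directly. For 39 of the 43 genes the log2 fold change of cryoinjury against uninjured was higher in cKO than in control, against 50.6% of all genes, and the median difference over the members was 0.37 against 0.01. None of these differences passed in edgeR, where 0.0244% of all genes did. At an unadjusted p under 0.05 there were 12 of the 43 and 11.2% of all genes, and DESeq2 called 0. The smallest p was that of lmod2b, with a difference of 1.26 (95% interval 0.52 to 2.00, adjusted p 0.230 in edgeR). For vmhcl the difference was 0.80 (interval 0.28 to 1.33), for atp2a2a 0.56 (0.06 to 1.07) and for tcap 2.27 (0.62 to 3.91). These intervals do not show that the arms responded alike. Uninjured control libraries were the ones read in lane 2, so lane and arm cannot be told apart in this difference. For tcap the fall in control, as given above, was all but absent with lane as a covariate, and its change in cKO was 0.17. All cKO libraries were read in lane 4, so a lane term could not alter the cKO value and does not test it.

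Between cryoinjured cKO and cryoinjured control ventricles, all in lane 4, 40 of the 43 genes had a positive log2 fold change, with a median of 0.39 against −0.01 over all genes. With total-count scaling these medians were 0.20 and −0.20, and 5 members changed sign. None passed in edgeR, and 1 gene of all those tested did, or 0.00489%. At an unadjusted p under 0.05 there were 17 of the 43, against 7.59% of all genes. DESeq2 called 2 members and a fit of these 6 libraries alone 5, and the shares of all genes called there are not given here. In 21 members every cKO library lay above every control library, which held for 11.3% of all genes. lmod2b, at 144, 179 and 197 CPM in control and 468, 327 and 407 CPM in cKO, had the smallest p, with a log2 fold change of 1.21 (95% interval 0.68 to 1.74, adjusted p 0.326 in edgeR). vmhcl followed, at 12855, 15473 and 17715 CPM in control and 29810, 21094 and 25467 CPM in cKO, with 0.73 (SE 0.19). For trdn the value was 0.84 (SE 0.23) and for vmhc 0.50 (interval 0.18 to 0.82). This comparison and the difference between responses share the cryoinjured libraries and are not independent of each other.

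Between uninjured cKO and control ventricles 0 of the 43 genes passed in edgeR, as did 0.132% of all genes, and the median log2 fold change was −0.05, from −0.61 to 1.62. An unadjusted p under 0.05 was found for 3 members and for 13.7% of all genes, and DESeq2 called 0 members. All uninjured control libraries were read in lane 2 and all cKO libraries in lane 4, so lane and arm cannot be told apart here. After sham 0 of 43 passed as well, against 0.0147% of all genes, with a median of 0.16, from −1.47 to 1.17. There 8 members and 8.04% of all genes had an unadjusted p under 0.05, and DESeq2 called 0 members. With total-count scaling 17 members changed sign after sham, and the median was −0.01 against −0.17 over all genes. Under both scalings the members' median lay 0.16 above that of all genes. Of the control sham libraries 2 were read in lane 2, so lane and arm are partly mixed there too. The absence of calls in these comparisons does not show that the arms were alike.

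**Figure D4:**
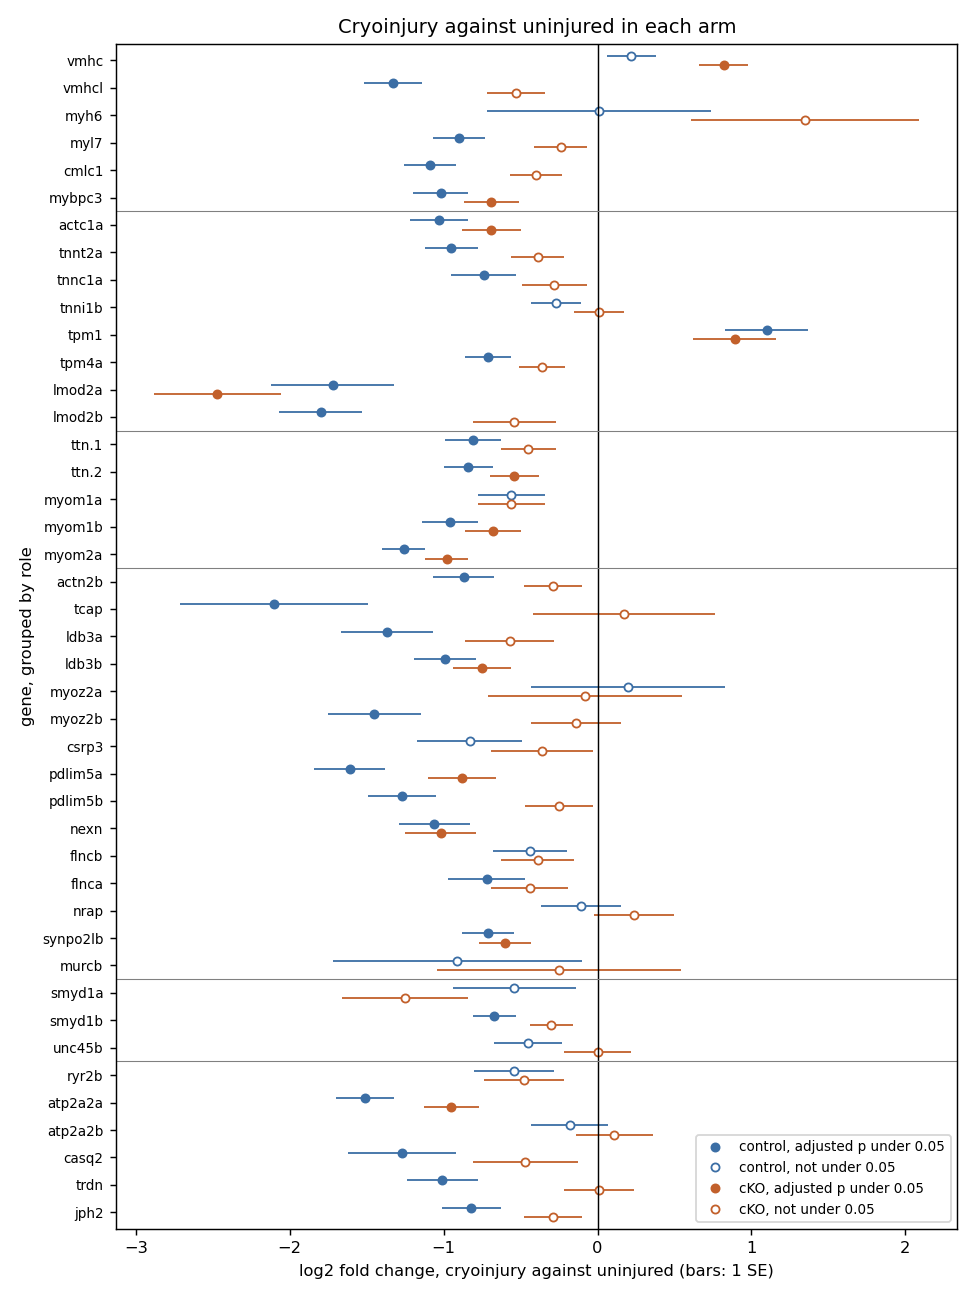
Log2 fold change of cryoinjury against uninjured for each of the 43 genes (rows, by role) in control (blue) and cKO (orange), with bars of 1 SE. Filled points had an adjusted p under 0.05. Points of 39 genes lie further right in cKO, and no difference between the arms passed the test.

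Averaged over the arms, cryoinjury against uninjured had 31 members that fell and 2 that rose (vmhc at 0.52 and tpm1 at 1.00), with 10 that did not pass. Over all genes 30.7% passed, with 13.6% lower and 17.1% higher, and the members' median was −0.63 against 0.03. All 5 genes of titin and the M band fell, with 5 of 6 of the sarcoplasmic reticulum, 6 of 8 of the thin filament, 4 of 6 of the thick filament, 9 of 15 of the Z disc and costamere and 2 of 3 chaperone genes. lmod2a changed by −2.10 (SE 0.29, adjusted p 5.20e-05 in edgeR), pdlim5a by −1.25 (SE 0.16, adjusted p 2.15e-05), atp2a2a by −1.23 (SE 0.13, adjusted p 3.95e-06), lmod2b by −1.17 (SE 0.19, adjusted p 0.000205) and myom2a by −1.12 (SE 0.10, adjusted p 5.88e-07). ryr2b, smyd1a and myom1a passed here and in neither arm alone, at −0.51, −0.89 and −0.56, and the calls of ryr2b and smyd1a were lost in 9 and 5 of the 12 fits that left out a library. With lane as a covariate 18 members passed, and the share of all genes that did is not given here. With total-count scaling 2 rose and 17 fell, and 90.7% of all calls were higher against 55.7%.

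The sham operation was compared with no operation next. In control 3 members fell and none rose, against 7.63% of all genes called and 2.82% called lower, and the median was −0.35 against 0.04. These 3 were ldb3a, lmod2b and myom2a, and without replicate 3 of uninjured control 8 members passed. ldb3a, a PDZ and LIM domain protein of the Z disc, was at 2504, 1671 and 1280 CPM uninjured and 690, 766 and 647 CPM after sham, a log2 fold change of −1.38 (with SE 0.30 and adjusted p 0.00991 in edgeR). After cryoinjury it was at 588, 776 and 748 CPM, which overlapped with the sham libraries. lmod2b was at 229, 277 and 269 CPM after sham, lower than each uninjured library, a change of −1.22 (SE 0.27, adjusted p 0.0108 in edgeR). myom2a was at 835, 835 and 806 CPM after sham, between its uninjured and cryoinjured libraries, a change of −0.68 (SE 0.14, adjusted p 0.00774 in edgeR). With lane as a covariate there were again 3 calls. With total-count scaling 1 member rose (tpm1, at 0.95) and 2 fell, and 92.1% of all calls were higher against 63.0%. The members' median was then −0.04 against 0.33 over all genes, which is 0.37 below that of all genes. The call of myom2a was lost there (adjusted p 0.0850 in edgeR). In a fit of the compared groups alone 1 call was left, that of ldb3a, and DESeq2 made 13, each without the share of all genes called there. Without replicate 1 of sham control the call of lmod2b was lost as well (adjusted p 0.0562 in edgeR). Within lane 2, with 2 sham and 3 uninjured libraries, the members' median was −0.32 against 0.09 over all genes, and 36 of 43 were lower.

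In cKO no member passed for sham against uninjured, while 1.05% of all genes did, and the median was −0.14 against 0.02. An unadjusted p under 0.05 was found for 5 members and for 10.7% of all genes, and DESeq2 called 1 member. ldb3a had 1440, 1595 and 606 CPM uninjured and 907, 611 and 642 CPM after sham. Uninjured replicate 3, at 606 CPM, lay below all 3 sham libraries. The difference between the arms in this contrast passed for 0 members and 0.0244% of all genes, with 2 members and 9.20% of all genes at an unadjusted p under 0.05 and 0 members in DESeq2. Averaged over the arms 7 members fell, against 8.46% of all genes called and 2.93% called lower: ldb3a at −1.06, lmod2a at −0.99, lmod2b at −0.85, nexn at −0.66, myom2a at −0.55, actc1a at −0.46 and atp2a2a at −0.43. With total-count scaling 2 rose and 3 fell, 91.5% of all calls were higher against 65.4%, and the calls of lmod2a, nexn, actc1a and atp2a2a were lost, with adjusted p in edgeR of 0.0698, 0.0708, 0.104 and 0.136. The count of 7 was 3 without replicate 3 of sham cKO and 4 without replicate 2 of sham cKO, replicate 2 of uninjured cKO, replicate 1 of sham control or replicate 2 of sham control. nexn was at 355, 344 and 366 CPM after sham in control and 454, 428 and 308 CPM in cKO, and lmod2a at 54.9, 56.8 and 115 CPM in control and 93.0, 84.9 and 64.7 CPM in cKO.

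Cryoinjured ventricles were also compared with sham ones. In control 7 members fell and none rose, against 1.37% of all genes called and 0.616% called lower, with a median of −0.53 against 0.00. These were atp2a2a at −0.94 (SE 0.18, adjusted p 0.0267 in edgeR), mybpc3 at −0.87 (SE 0.18, adjusted p 0.0304), pdlim5a at −0.98 (SE 0.22, adjusted p 0.0419), myom1b at −0.77, synpo2lb at −0.73, vmhcl at −0.81 and myom2a at −0.58. mybpc3 was at 6578, 6967 and 4903 CPM after sham and 3247, 3399 and 3437 CPM after cryoinjury, and synpo2lb, an actin-associated Z disc protein, at 2340, 2297 and 2223 CPM and at 1131, 1435 and 1572 CPM. Neither pair of groups overlapped. No call was left in any of the 6 fits that left out a library, nor with lane as a covariate. With total-count scaling 3 members fell, and 89.3% of all calls were higher against 55.0%. Within lane 4, with 3 cryoinjured libraries and 1 sham library, the members' median was −0.45 against −0.01 over all genes, and 35 of 43 were lower.

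In cKO cryoinjury against sham had 0 members called, against 1.46% of all genes, with a median of −0.28. Of all calls 81.2% were higher, and 95.5% with total-count scaling. An unadjusted p under 0.05 was found for 16 members and for 15.6% of all genes. DESeq2 called 4 members and a fit of the groups compared alone 8, again without the share of all genes called there. The difference between the arms passed for 0 members and 0% of genes, with 1 member and 2.30% of all genes at an unadjusted p under 0.05 and 0 members in DESeq2. Averaged over the arms 18 members fell and none rose, against 11.7% of all genes called and 5.11% called lower, and the median was −0.41 against 0.00. With total-count scaling 2 rose and 11 fell, and 89.5% of all calls were higher against 56.5% with TMM. Among the called members the largest changes were those of lmod2a at −1.11 (SE 0.28, adjusted p 0.0187 in edgeR), pdlim5a at −0.80 (SE 0.16, adjusted p 0.00436), atp2a2a at −0.80 (SE 0.13, adjusted p 0.00190), mybpc3 at −0.71 (SE 0.13, adjusted p 0.00285) and synpo2lb at −0.65 (SE 0.12, adjusted p 0.00360). In cKO mybpc3 was at 7418, 6807 and 6250 CPM after sham and 5481, 3836 and 4614 CPM after cryoinjury, and synpo2lb at 2103, 2595 and 2345 CPM and at 1755, 1390 and 1609 CPM. No library of one group reached the other for either gene. Without replicate 2 of cryoinjured cKO 8 members passed, and with lane as a covariate 8.

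Paralogue pairs allowed a comparison within a library that does not depend on library scaling. For 10 pairs the share of the first copy in the summed TPM was compared between procedures by an exact two-sided permutation test within arms, in 30 tests whose smallest possible p is 0.005. The share of vmhc in vmhc and vmhcl was 1.32%, 1.54% and 1.79% in uninjured control, 1.90%, 2.59% and 2.32% after sham, and 4.89%, 5.15% and 3.59% after cryoinjury. In cKO it was 1.58%, 1.64% and 1.45% uninjured, 2.14%, 2.45% and 2.17% after sham, and 3.10%, 5.24% and 3.68% after cryoinjury. In both arms the 3 procedures did not overlap and were in the same order. The exact test gave p = 0.005 and adjusted p = 0.0300 for each contrast, with shifts averaged over the arms of 2.72 percentage points for cryoinjury against uninjured, 0.708 for sham against uninjured and 2.01 for cryoinjury against sham. In the cKO arm, all in lane 4, these shifts were 2.45, 0.694 and 1.76 points.

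The share of atp2a2a among the pump genes atp2a2a and atp2a2b was 98.66% to 99.38% in uninjured and 99.02% to 99.22% in sham control libraries, and 97.39%, 97.95% and 98.32% after cryoinjury. In cKO it was 99.16% to 99.52% in uninjured and sham libraries and 98.39% to 98.70% after cryoinjury. It fell by 1.00 points against uninjured and by 0.990 points against sham (exact permutation, adjusted p = 0.0300 for both). The share of ldb3a among ldb3a and ldb3b was higher after cryoinjury than after sham by 9.35 points (exact permutation, adjusted p = 0.0429). It was 35.2%, 31.6% and 23.9% after sham in control against 40.0%, 40.6% and 35.0% after cryoinjury, and 27.4%, 21.8% and 22.3% against 33.9%, 37.4% and 31.5% in cKO. The groups overlapped by 1 library in control and not in cKO. Against uninjured libraries the ldb3a share shifted by −9.08 points after sham and by 0.276 points after cryoinjury. Neither shift passed (exact permutation, adjusted p = 0.163 and 0.965). pdlim5a lost 0.676 points to pdlim5b between uninjured and cryoinjured libraries (exact permutation, adjusted p = 0.0429). The share of lmod2a among the leiomodins did not pass, with adjusted p of 0.05 against sham and 0.163 against uninjured (exact permutation), and its values in cKO were 20.9%, 36.0% and 53.0% uninjured and 14.0%, 10.7% and 15.2% after cryoinjury. The other pairs, among them ttn.1 and ttn.2 at 29.3% to 35.5% for ttn.1, did not pass.

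**Figure D5:**
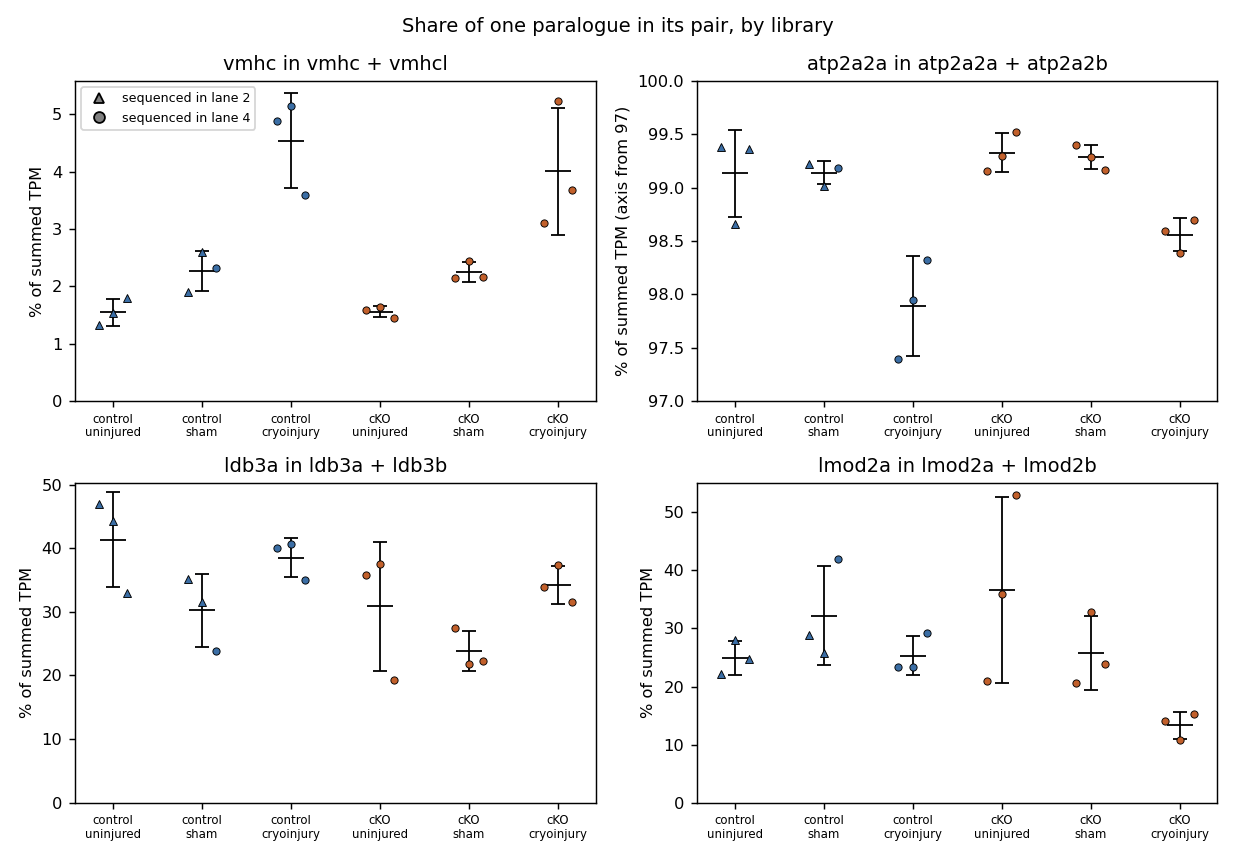
Share of 1 paralogue in the summed TPM of its pair, by library and group, with mean and 1 SD, for the myosins, calcium pumps, LDB3 genes and leiomodins. The axis of the pump panel starts at 97. The vmhc share is highest after cryoinjury and lowest without operation in both arms.

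Within genes, StringTie also splits coverage among annotated transcripts, and these shares are estimates given here without a test. tnnt2a was divided between a transcript of 849 bases, with 57.9% ± 1.21 of the coverage in uninjured control, and one of 1176 bases, with 41.2% ± 1.33. After cryoinjury in control these were 54.6% ± 4.31 and 44.4% ± 4.06. ldb3b stood out among the members in the share of its transcript of 1655 bases, at 47.9%, 68.4% and 64.7% in uninjured control, 63.5%, 52.5% and 62.7% after sham and 44.8%, 21.3% and 22.6% after cryoinjury. In cKO that share was 56.9%, 61.0% and 63.7% uninjured and 49.6%, 59.3% and 62.9% after cryoinjury. Cryoinjured control libraries, at most at 44.8%, lay below the other libraries given here for this transcript, of which the lowest was at 47.9%. Cryoinjured cKO libraries did not separate from uninjured ones, and sham cKO libraries are not given here. This transcript was picked after its values were seen.

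Related genes outside the 43 were counted from lists written with earlier results of these data known. Over all genes tested 13.1% were called higher and 10.6% lower after cryoinjury in control. Of 27 other calcium handling genes tested 5 rose and 10 fell in that contrast, with a median log2 fold change of −0.38. asph, whose gene also encodes junctin, rose by 1.80 (SE 0.22, adjusted p 3.74e-05 in edgeR), the kinase gene camk2d1 by 2.83 and stim1a, a sensor of stored calcium, by 1.17 in cKO. In control camk2d2 had −1.93 and jph1a −1.33. None of these genes is given here in both arms, so the values do not compare the arms. Of 32 other sarcomere, intermediate filament and assembly genes 1 rose and 14 fell in control, with a median of −0.78. The gene that rose was ankrd1a, a stress-responsive titin-binding repeat protein, at a mean of 0.320 CPM uninjured and 21.6 CPM after cryoinjury (log2 fold change 6.07, adjusted p 4.44e-05 in edgeR), and mylk3, the cardiac myosin light chain kinase, fell by 2.01. Of 38 sarcomere paralogues outside the members 6 rose and 5 fell, with a median of 0.05, among them tpm4b at 3.79 and acta1b at −1.87. In cKO the counts were 4 higher and 3 lower, 1 higher and 3 lower, and 9 higher and 1 lower for the 3 lists. Over all genes tested 6.92% were called higher and 3.69% lower in cKO.

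Markers of cell types were counted beside these results. After cryoinjury in control 8 of 9 fibroblast, 6 of 8 epicardial and 6 of 8 macrophage markers rose. Of the bulbus and smooth muscle markers 1 of 6 rose, and of 7 myocardium markers 0 rose and 2 fell. Over all genes tested 13.1% were called higher and 10.6% lower. Bulbus and smooth muscle markers summed to 87.1 to 117 CPM in uninjured and 137 to 239 CPM in cryoinjured control libraries. For cKO they summed to 69.2 to 103 and 247 to 255 CPM, and 3 of 6 rose, against 6.92% of all genes. Myocardium markers summed to 3177 to 5689 CPM and 3176 to 3781 CPM in control, which overlapped. For cKO the sums of 2577 to 3810 and 2807 to 3310 CPM overlapped too. Within this list nppa was at 1564 to 4199 CPM over the 18 libraries, and nppb, at 30.1 to 1077 CPM, came next at its highest. These sums therefore stand mostly for nppa and do not measure the share of heart muscle. The fibroblast markers summed to 839 to 1356 CPM in uninjured and 5760 to 10454 CPM in cryoinjured control libraries; in cKO the sums were 1201 to 2100 and 7298 to 8815 CPM. Macrophage markers summed to 225 to 651 CPM and 891 to 1207 CPM in control, and to 314 to 792 CPM and 777 to 896 CPM in cKO. The fibroblast sum after sham was 4604 to 7328 CPM for control and 3790 to 5114 CPM for cKO. The 4 neutrophil markers summed to 1.47 to 17.6 CPM over all libraries, with mmp13a at 0 in 6 of them, and of 10 endothelial markers 0 rose and 1 fell in control. The skeletal muscle list summed to 10414 to 13420 CPM in uninjured, 3394 to 4961 CPM in sham and 3648 to 4612 CPM in cryoinjured control libraries. For cKO these sums were 6101 to 11565, 5108 to 6816 and 5097 to 6488 CPM. No gene of that list but ckma and acta1b exceeded 39.7 CPM in any library, so its sums stand for those genes. The part of all these markers in the lower share of the 43 genes was not tested. As a value for RNA quality, the ratio of coverage in the first to the last 10% of ryr2b was 0.0749 ± 0.0144, 0.105 ± 0.0270 and 0.0696 ± 0.0106 in control by procedure and 0.0716 ± 0.0225, 0.162 ± 0.0788 and 0.149 ± 0.0337 in cKO. Cryoinjured cKO libraries, at 0.129 to 0.188, were above cryoinjured control libraries, at 0.0596 to 0.0806, and whether this bears on the differences between them was not tested.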

How the data were processed

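Poly(A) RNA from zebrafish ventricles was sequenced in 18 libraries. The submitters' processing notes name FastQC 0.11.9, Trim Galore 0.6.10, HISAT2 2.1.0 and StringTie 2.1.1 with GRCz11; per the file headers StringTie 2.1.1 ran with Ensembl 109. The deposited estimated counts per gene are whole numbers that lie within 1 count of coverage times length over 75 for 100% of values, and coverage and TPM are other values in the deposited library files. Whether counting used strand is not given in the sources used here.

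Genes were kept by filterByExpr, which left 20462, scaled by TMM and fitted over all 18 libraries with the edgeR 4.0.16 quasi-likelihood test in R 4.3.3 (robust, two-sided), with Benjamini-Hochberg adjustment over all genes tested and calls at an adjusted p under 0.05. SE was derived from the log2 fold change and its F statistic. DESeq2 1.42.0 was an alternative, with other scalings, no filter, lane as a covariate, a replicate block, the groups compared alone and each library left out. Member counts under these alternatives mostly come without the share of all genes called. They do not show whether calls changed among members more than in general. CPM is scaled by TMM, and levels of different genes are compared only in TPM. Paralogue shares were tested by exact permutation within arms, and the pair ryr2a and ryr2b was not run. The script was tested on simulated data. Genes given with every library were those of highest mean CPM in each role and, per comparison, the called members of largest absolute log2 fold change, at most 5 in each direction; their close copies and other uncalled genes so given were chosen after their values were seen. The members and lists were chosen with earlier results of these data known. Symbols were matched through the reference name tables, case, chromosome and neighbouring genes, and murcb is cavin4b in them. Several members share exon bases with a neighbour. On opposite strands these are csrp3 with zdhhc13 (223 bases) and smyd1a with fabp1a (584 bases). On the same strand nexn shares bases with mindy4 (484 bases) and a gene without a symbol (673 bases). Also on the same strand are tpm4a with hsh2d (279 bases) and synpo2lb with myoz1b (85 bases).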

Additional observations from a re-analysis of the deposited data

How the results depend on the processing

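Counts of members called are given beside those in the report, without the share of all genes called under each setting. With lane as a covariate they were 6 for cryoinjury against uninjured and 0 for cryoinjury against sham in control, and 18 and 8 averaged over the arms. With scaling by total counts they were 19 and 3 in control, 6 for cryoinjury against uninjured in cKO, and 19 for it averaged. DESeq2 gave 13 for sham against uninjured and 16 for cryoinjury against sham in control, 1 and 4 for these in cKO, 2 for cryoinjured cKO against control and 11 for sham against uninjured averaged. Fits of the groups compared alone gave 1 for sham against uninjured in control, 8 for cryoinjury against uninjured and 8 for cryoinjury against sham in cKO, 5 for cryoinjured cKO against control and 4 for sham against uninjured averaged. The replicate block gave 6 for sham against uninjured in control and 2 for cryoinjury against sham in cKO. Deviations of same-numbered libraries correlated at −0.03 to 0.20 (median 0.05, 9 of 45 pairs over 0.1) and those of other libraries at −0.22 to 0.10 (median −0.02, 0 of 90 over 0.1). Same-numbered libraries thus correlated more, and whether the numbers mark a shared batch is not known. The main fit did not pair libraries by number. Deviations were taken from means of 3 libraries, so correlations of same-numbered and of other libraries are not independent. Leaving out 1 library gave 27 to 31 for cryoinjury against uninjured, 2 to 8 for sham against uninjured and 0 for cryoinjury against sham in control, 4 to 12, 0 to 1 and 0 in cKO, and 29 to 35, 3 to 10 and 8 to 17 averaged. Paralogue calls ranged from 4 to 10 of 30, with 4 without replicate 3 of uninjured control or replicate 1 of cryoinjured control. Without mitochondrial and haemoglobin genes the share of the 43 genes was 15.5%, 14.2% and 10.4% in control and 15.9%, 15.3% and 12.9% in cKO. The cause of these shifts was not tested. Counts stayed within 1.5 times under no filter, DESeq2 size factors and TMM without the members.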
